A study of Mus musculus with 6 samples.

Results

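The miR-378 family was examined in small RNA of exosomes from RAW264.7 cells, a mouse macrophage line. Exosomes are small vesicles that cells release and that carry RNA to other cells. The cells were kept in medium free of exosomes, on polished (smooth) titanium alloy disks or on disks given a small-scale topography (labelled micro-/nano-) by sandblasting, acid etching and alkali heat treatment, and each surface has 3 libraries, called small-scale and smooth libraries here, whose values are given in the order of replicates 1, 2 and 3. All libraries come from 1 cell line with no genetic change or drug named in the labels, and no source tells if they represent separate cultures. The p-values therefore cover the spread among these libraries alone, in part pooled over all sequences tested, and that spread may be technical. Members were the rows whose name, without the species prefix and without any suffix that marks a changed end or base, reads miR-378 with or without a letter from a to j, or miR-422a, on either arm. This gave 8 of 2731 rows, which are 8 of 2704 distinct sequences. All 8 carry a miR-378 name.

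MicroRNAs are short RNAs that guide Argonaute proteins to messenger RNAs, mainly through their seed, bases 2 to 8 from the 5′ end. The hairpin of miR-378a lies within the gene of PGC-1β (Ppargc1b), a coactivator of mitochondrial and fat metabolism, and both of its arms are known regulators of energy use in mouse liver, muscle and fat. In mouse macrophages miR-378-3p has been described as induced by interleukin-4, and in MC3T3-E1 osteoblast precursors miR-378 has been studied as a regulator of differentiation. The mouse has further hairpins, Mir378b, Mir378c and Mir378d, whose products are close copies of the 3p arm of miR-378a.

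The mature products of these paralogs are shown because the deposited sequences carry the same letters in their names and can be compared with them base by base. They are taken from RefSeq (GRCm38.p6), 5′ to 3′, with the seed in capitals.
mmu-miR-378b: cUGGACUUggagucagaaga
mmu-miR-378c: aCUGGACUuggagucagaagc
mmu-miR-378d: aCUGGCCUuggagucagaaggu
These lie at chr11:88352839-88352858 on the plus strand, chr14:46954905-46954925 on the minus strand and chr10:126710355-126710376 on the minus strand. miR-378c differs from miR-378a-3p by G21C alone, counted from the 5′ end of miR-378a-3p with its base first, so their first 20 bases and their seed are the same. miR-378d differs by A6C over 21 bases, inside the seed. miR-378b starts 1 base later, which shifts its seed, and differs by G21A.

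In the annotation (GENCODE M21, GRCm38), Mir378a occupies chr18:61397835-61397900, within an intron of Ppargc1b and, like that gene, on the minus strand. A further microRNA gene, Gm25301, is annotated opposite it. Mir378b lies opposite an intron of Msi2 and Mir378c opposite an intron of Samd4, while Mir378d overlaps no other annotated gene.

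Of the 8 deposited sequences, 2 matched an annotated mouse transcript exactly, and both matched Mir378a. They are miR-378a-3p, at chr18:61397838-61397858, and miR-378a-5p, at chr18:61397875-61397896. No member matched Mir378b, Mir378c or Mir378d over its whole length. The deposited names come from the rat (3), the human (4) and the rhesus macaque (1), and a suffix such as R+1 gives the bases added at the 3′ end, and 1ss2GC a substitution, relative to the reference sequence of that name.

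Compared with the Mir378a hairpin, 5 of the 6 remaining members begin with an unbroken stretch of miR-378a-3p and end in bases that the hairpin does not hold there. The row named miR-378b_R+1_1ss2GC has the first 21 bases followed by T. The row named miR-378g_R+3_1ss6GA has the first 22 followed by T. miR-378c_R-4 has the first 20 followed by A, and the human-named miR-378d the first 19 followed by A, and both stretches lie also within mouse miR-378c. Bases 2 to 21 of miR-378c_R-4, its final A included, are the whole of mouse miR-378b as printed above, and its first base alone is not in the Mir378b hairpin there. The final T of miR-378b_R+1_1ss2GC likewise stands in the Mir378d hairpin, which shares bases 7 to 22 of that member but not base 6. The row named miR-378d_R+1_1ss21CG has the first 21 followed by AG. The remaining member, miR-378g_R-1, is 19 bases long and differs from miR-378a-3p by A6G. The letters b, c and d in these names are taken from other species. No row so named matches the mouse hairpin of its letter over its whole length. The first 20 bases of miR-378c_R-4 stand in Mir378c as well as in Mir378a. Where the end bases come from was not tested. The seed of miR-378a-3p and miR-378c, CTGGACT in the letters of the table, stands in 6 of the 8 members and in no other sequence among the 2704.

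The values are normalized by the authors, and their totals over all distinct sequences ran from 210677 in small-scale topography replicate 1 to 281542 in smooth replicate 2. Estimated from the steps between the low values, there were 163845 to 264828 reads in the small-scale libraries, against 194511 to 604081 in the smooth ones. Sequences with fewer than about 5 reads, worth 2.33 to 7.77, are mostly not listed, so a listed 0 may be a low level. The values are relative, so fewer vesicles that carry a microRNA and less of it per vesicle cannot be told apart. Of 6 myeloid markers (miR-21, miR-142, miR-146a, miR-155, miR-223 and miR-511) all but miR-511 were listed, and together they held, of the normalized total, 38.5% to 46.2% in the small-scale libraries, against 40.5% to 46.6% in the smooth ones. Of this sum 99.4% to 99.8% was miR-21, which many cell types express, and the other myeloid markers held 0.0967% to 0.267% of the total. A sequence named for the miR-223 hairpin, mir-223-p5, is not counted in these sums.

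The 3p arm, miR-378a-3p, known as a regulator of energy use, dominated the family in every library. Its normalized value was 4438, 5078 and 5021 in the small-scale libraries, against 4853, 4181 and 4585 in the smooth ones. The groups overlapped, with the highest value in small-scale topography replicate 2 and the lowest in smooth replicate 2. It ranked between position 7 and position 11 among all sequences of a library, and it rested on 3269 to 8970.5 reads. It made up 95.6% to 98% of all values of the family.

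The means of miR-378a-3p were 4846 ± 354 in the small-scale libraries, against 4540 ± 338 in the smooth ones (SD, n = 3 each). On log2(value + 1), with fold changes given as small-scale topography over smooth throughout, limma gave 0.09 (standard error 0.24, 95% interval -0.40 to 0.59, adjusted p = 0.943 over all sequences tested). No difference larger than the spread between libraries was found.

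**Figure D1:**
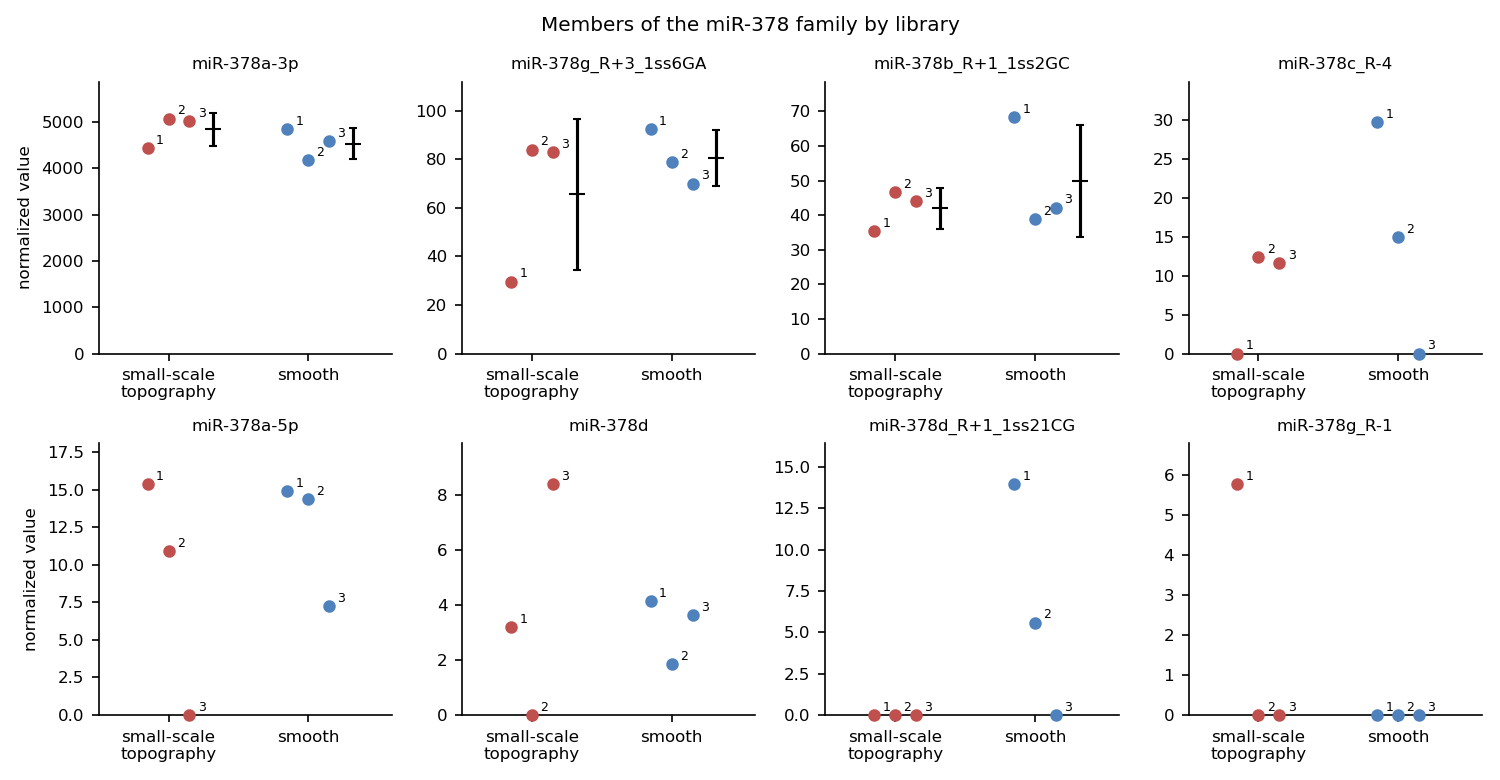
Normalized value of the 8 members of the miR-378 family in each library, 1 panel per member, with red points for small-scale topography and blue points for smooth disks, numbered by replicate. Each y axis starts at 0 and has its own range, and the bar beside the points is the mean ± SD, drawn where no library is at 0. miR-378a-3p stands at 4181 to 5078 while no other member exceeds 92.5.

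The 5p arm, miR-378a-5p, which carries another seed and was described in human cells as a regulator of oxidative metabolism, was scarce. It was listed at 15.4, 10.9 and 0 in the small-scale libraries, against 14.9, 14.4 and 7.23 in the smooth ones. These are 12, 7 and 0 reads and 18, 31 and 6 reads, and the groups overlapped. The 3p arm exceeded the 5p arm 288-fold and 467-fold in small-scale replicates 1 and 2, against 326-fold, 289-fold and 634-fold in the smooth libraries. For small-scale topography replicate 3, with the 5p arm at 0, no ratio can be given. The log2 fold change of the 5p arm was -1.12 (standard error 1.29, 95% interval -3.77 to 1.52, adjusted p = 0.823 from limma). It turned to 0.14 without small-scale topography replicate 3, the library at 0.

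The forms ending in T were the most abundant minor forms. The 22 bases followed by T (miR-378g_R+3_1ss6GA) had 29.6, 83.9 and 83 in the small-scale libraries, against 92.5, 78.8 and 69.9 in the smooth ones. Small-scale topography replicate 1 stood well below the other libraries, at 23 reads, and the groups overlapped. The log2 fold change was -0.43 (standard error 0.47, 95% interval -1.39 to 0.54, adjusted p = 0.823 from limma), and 0.06 without small-scale topography replicate 1.

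The 21 bases followed by T (miR-378b_R+1_1ss2GC) had 35.4, 46.6 and 44.1 in the small-scale libraries, against 68.5, 38.9 and 42.2 in the smooth ones. Only smooth replicate 1 stood apart, and the groups overlapped. The log2 fold change was -0.21 (standard error 0.52, 95% interval -1.28 to 0.86, adjusted p = 0.943 from limma), and 0.04 without smooth replicate 1.

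Together, the forms ending in T made up 1.44%, 2.5% and 2.46% of the 3p-arm values in the small-scale libraries, against 3.18%, 2.72% and 2.38% in the smooth ones. The means were 2.13% ± 0.601 and 2.76% ± 0.4 (SD, n = 3 each), and the groups overlapped. Small-scale topography minus smooth, the means differed by -0.63 percentage points, and by -0.283 without small-scale topography replicate 1.

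The forms ending in A, of which miR-378c_R-4 holds all of mouse miR-378b, were rarer and were listed in fewer libraries. miR-378c_R-4 was listed at 0, 12.4 and 11.6 in the small-scale libraries, against 29.7, 14.9 and 0 in the smooth ones. The human-named miR-378d was listed at 3.21, 0 and 8.41 and at 4.13, 1.86 and 3.62, with 8 reads at most. Both sets of values overlapped between the surfaces, and each member was at 0 in at least 1 library. As shares of the 3p arm, the forms ending in A held 0.0712% to 0.386% in the small-scale libraries, against 0.0769% to 0.669% in the smooth ones. limma gave a log2 fold change of -0.51 (standard error 1.51) for miR-378c_R-4 and of -0.26 (standard error 1.58) for miR-378d, with adjusted p = 0.943 and 0.978. Both signs turned with 1 library left out, to 0.72 for miR-378c_R-4 without small-scale topography replicate 1, to 0.47 for it without smooth replicate 1, and to 0.63 for miR-378d without small-scale topography replicate 2.

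The last 2 members summed to less than 20 over the 6 libraries and were not tested. miR-378d_R+1_1ss21CG, the form ending in AG, was listed at 14 and 5.59 in smooth replicates 1 and 2 and at 0 in the other libraries. These are 17 and 12 reads, and smooth replicates 1 and 2 are the libraries with the most reads. miR-378g_R-1, with the changed seed, was listed in small-scale topography replicate 1 alone, at 5.79, or 4.5 reads. Fractions of a read stand where a value is not a whole multiple of that of 1 read.

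**Figure D2:**
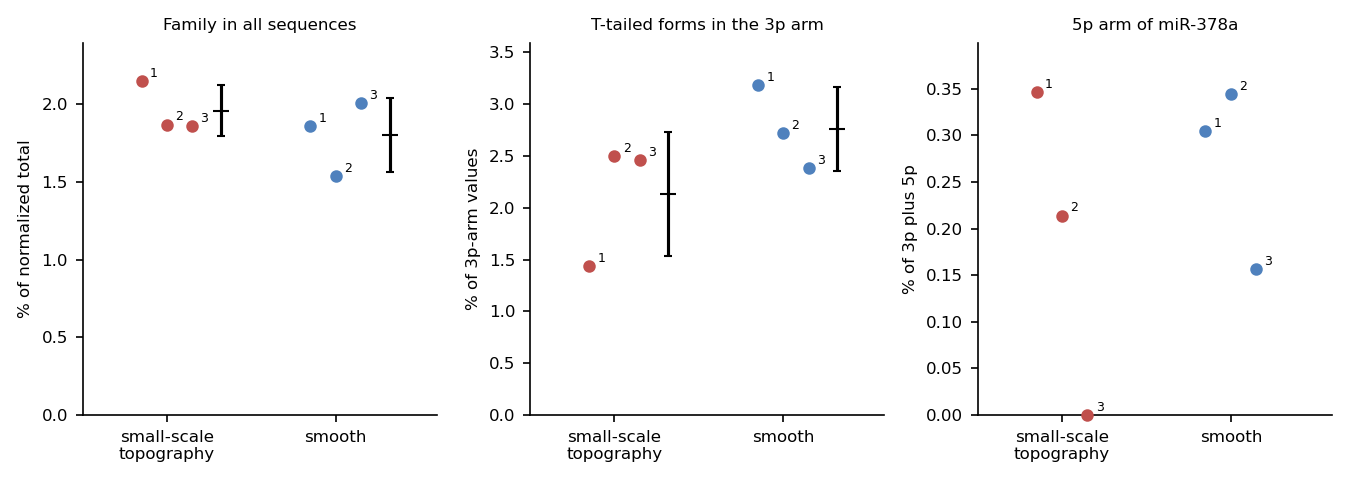
Share of the miR-378 family in the normalized total of a library (left), share of forms ending in T among the 3p-arm values (middle) and share of the 5p arm in both arms of miR-378a (right), in percent, with red points for small-scale topography, blue points for smooth disks and replicate numbers beside them. The bars are mean ± SD, drawn where no library is at 0. In each panel the 2 surfaces overlap, and small-scale topography replicate 1 is lowest in the middle panel at 1.44%.

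Summed over its 8 members, the family had a normalized value of 4527, 5232 and 5168 in the small-scale libraries, against 5077, 4335 and 4708 in the smooth ones. As a share of the normalized total this was 2.15%, 1.87% and 1.86% in the small-scale libraries, against 1.86%, 1.54% and 2.01% in the smooth ones. The means were 1.96% ± 0.166 and 1.8% ± 0.24 (SD, n = 3 each). Small-scale topography replicate 1 had the second lowest value but the highest share, and its total is the smallest of the 6.

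Shares of other microRNAs differed between the same libraries. The markers of liver and serum (miR-122, miR-144, miR-192, miR-194, miR-451 and miR-486 listed, miR-451a without a row of that name) held 1.68%, 1.31% and 1.19% of the total in the small-scale libraries, against 0.925%, 0.849% and 1.67% in the smooth ones. Their share was highest in small-scale topography replicate 1 and lowest in smooth replicate 2, as was that of the family. Most of this sum was miR-122-5p_R-1, with a mean value of 3315 in the small-scale libraries, against 2759 in the smooth ones. The next most abundant, miR-192-5p_R-1, had 81.7 and 83.6. The sum of the myeloid markers, nearly all of it miR-21, was lowest in small-scale topography replicate 1 at 38.5% and highest in smooth replicate 2 at 46.6%. Without miR-21, these markers held 0.202%, 0.142% and 0.0967% in the small-scale libraries, against 0.267%, 0.228% and 0.2% in the smooth ones. The part of these, and of depth, in the share of the family was not tested. Of 8 muscle markers, chosen because muscle is rich in miR-378a, miR-133a, miR-208b and miR-499 were listed and the other 5 were not. Their summed share was 0% to 0.00333% in the small-scale libraries, against 0% to 0.00248% in the smooth ones. This sum leaves out mir-133a-2-p3_1ss9GT, a sequence named for a miR-133a hairpin.

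Across the whole table, 536 sequences were tested, and limma called 0% of them at an adjusted p under 0.05, so the absence of calls among the 6 tested members does not set them apart. At an unadjusted p under 0.05 there were 12 among the 536 (11 without the mean-variance trend) and 0 among the 6. The groups did not overlap in 37 of the 536, or 6.90%, and in 0 of the 8 members. Of the 6 tested members, 1 had a log2 fold change above 0 and 5 below. The 5 include miR-378d, although its mean value was 3.87 in the small-scale libraries, against 3.2 in the smooth ones. Over all tested sequences 50.6% were positive, and over the 305 of them with a microRNA name 41% were.

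**Figure D3:**
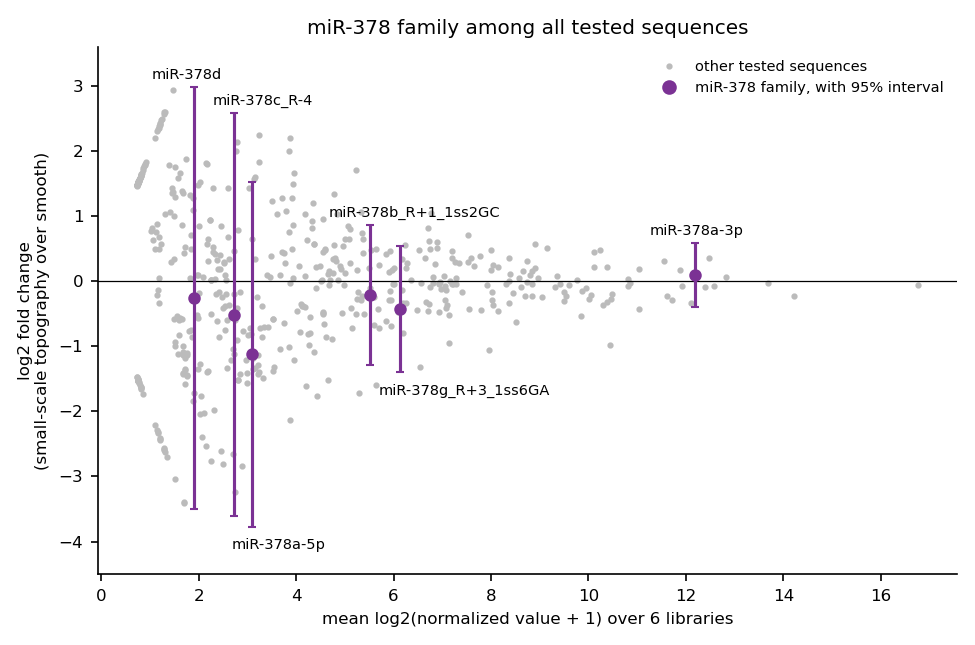
Log2 fold change of each tested sequence, small-scale topography over smooth, against its mean log2(normalized value + 1) over 6 libraries. Grey points are sequences outside the family, and purple points are the 6 tested members with the 95% interval from limma. Every interval includes 0, from -0.40 to 0.59 for miR-378a-3p and from -3.77 to 1.52 for miR-378a-5p.

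The SD of miR-378a-3p within groups on log2(value + 1) was 0.108, against a median of 0.493 over the 252 sequences listed in all 6 libraries, and 4 of these had a smaller one. Among the 31 with a mean value of at least 1000, a limit set after the values were seen, 1 had a smaller SD, and their median was 0.314. With the libraries rescaled to the same total the SD was 0.169, and a smaller one was found for 12 of the 252 and for 5 of the 31 abundant sequences. The forms ending in T varied more, with 0.615 for miR-378g_R+3_1ss6GA and 0.339 for miR-378b_R+1_1ss2GC. The standard error from limma, 0.24 for miR-378a-3p, is moderated toward the spread of tested sequences of similar level. It is thus not built from the SD of 0.108 alone.

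**Figure D4:**
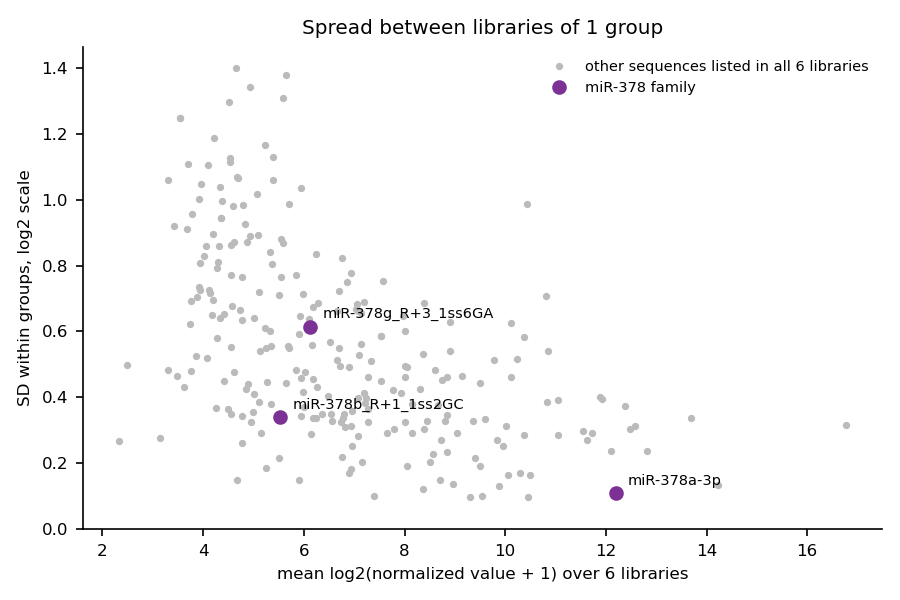
SD within groups of log2(normalized value + 1) against the mean over 6 libraries, for the 252 sequences listed in all 6 libraries, with grey points outside the family and purple points for its 3 members among them. miR-378a-3p lies near the lower edge at 0.108, and miR-378g_R+3_1ss6GA lies at 0.615.

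By Pearson's r over the 6 libraries on log2(value + 1), the named sequences most like miR-378a-3p were miR-660_R+1 (r = 0.919), miR-126a-5p (r = 0.883), miR-126a-3p_R-1 (r = 0.844), miR-27a-5p (r = 0.824) and miR-1981-5p_R-1 (r = 0.777), out of 186 candidates. These are descriptions over 6 points, and sequences of 1 library share its depth and scaling. Both arms of miR-126a, a microRNA known from endothelial cells, are among them. Each of the 5 had its lowest value in smooth replicate 2 or in small-scale topography replicate 1, the libraries in which miR-378a-3p is lowest. miR-378a-3p moved far less than miR-126a-5p, which went from 31.1 in small-scale topography replicate 2 to 4.66 in smooth replicate 2. Its own forms ending in T followed it less closely, with r = 0.542 for miR-378b_R+1_1ss2GC and r = 0.433 for miR-378g_R+3_1ss6GA. None of the 5 was called (log2 fold changes 0.05 to 1.04, adjusted p = 0.823 to 0.968 from limma).

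Other microRNAs with roles in metabolism or bone formation gave no call either, at a background of 0%, and some stand in more than 1 of the lists. Of 21 tested sequences of microRNAs known from lipid, glucose and mitochondrial metabolism, 8 had a log2 fold change above 0 and 13 below (median -0.14, against 0.01 over all sequences tested and -0.10 over those with a microRNA name). Their most abundant were miR-27b-3p, a regulator of fat-cell formation, at -0.23 (standard error 0.27), and miR-27a-3p_R-1 at -0.34 (standard error 0.25). Of 12 sequences of microRNAs that promote osteogenesis, 4 were positive and 8 negative (median -0.27). Of 14 sequences of microRNAs that inhibit it, 3 were positive and 11 negative (median -0.18). Either arm of a listed microRNA was counted, whichever arm has the known role. The 3 positive were miR-34c-5p at 1.71 (standard error 0.59), miR-93-3p_R-1 at 0.65 (standard error 1.33) and miR-204-3p_R-1 at 0.39 (standard error 0.33). The most abundant of the promoting list were miR-21-5p at -0.05 (standard error 0.36) and miR-210-3p, a microRNA of the hypoxia response, at -0.98 (standard error 0.38). The mean value of miR-210-3p was 1020 ± 286 in the small-scale libraries, against 2459 ± 1683 in the smooth ones (SD). Its SD within groups on log2(value + 1) was 0.987. On the inhibiting list the most abundant were miR-93-5p at -0.03 (standard error 0.29) and miR-125b-5p at -0.19 (standard error 0.25). Of the marker lists, 1 of 9 tested myeloid sequences was positive (median -0.42; miR-21-5p, and miR-146a-5p at -1.06, standard error 0.36), and 4 of 6 of liver and serum were (median 0.16; miR-122-5p_R-1 at 0.30, standard error 0.25, and miR-192-5p_R-1 at 0.01, standard error 0.42), while no muscle sequence reached the test. The adjusted p of each microRNA named here was between 0.823 and 0.993 (limma).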

How the data were processed

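Small RNA of exosomes was sequenced by the authors from 6 libraries, 3 per titanium surface, with TruSeq small RNA preparation. The authors removed adapters, kept reads of 18 to 26 bases, took out reads matching messenger RNA, Rfam families and repeats, then used ACGT101-miR to name the sequences and scale the libraries. What was deposited is thus a scaled signal for each sequence in each library and no raw count. Which scaling factor, program version, miRBase release and genome build they used is not given in the sources used here. Identically repeated rows (27) were used once.

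For each library the value of 1 read was the largest step that made most of its lowest values whole multiples, from 0.466 to 1.55. Of all listed values, 87.9% to 92.7% were whole multiples within 0.02. Libraries were grouped by the treatment in the labels. Sequences summing to at least 20 over the libraries were tested on log2(value + 1). On this scale the added 1 reduces the change of low sequences, while a value of 0 in a library can enlarge it. The test was that of limma 3.58.1 in R 4.3.3 (moderated test with a mean-variance trend, two-sided, Benjamini-Hochberg adjustment over all 536). The fit was tested on simulated data. Other steps used Python 3.11.15, NumPy 2.4.6, pandas 2.3.3 and Matplotlib 3.10.9. Scores over members received no test, and the exact permutation test of 3 against 3 libraries cannot go below 0.1.

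The members, lists and tests were chosen with earlier results of these data known. Named were all members, the 5 named sequences listed in every library with the highest Pearson's r with miR-378a-3p, and the 2 most abundant tested sequences of each list. Alternatives were other pseudocounts, filters and scalings, a replicate block, sums by name, deposited rows with duplicates, no trend and each library left out. Target genes and pathways were not analysed here.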

Additional observations from a re-analysis of the deposited data

How the results depend on the processing

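No sequence was called under any of the 16 alternatives, with 7 to 38 at an unadjusted p under 0.05. Of 96 alternative log2 fold changes of the 6 tested members, 89 kept their sign, 7 turned, and 0 had an adjusted p under 0.05 in limma. For miR-378d the log2 fold change was -0.26 and turned to 0.01 with a pseudocount of 5. With values summed by name it was -1.41, but that sum also holds miR-378d_R+1_1ss21CG, listed in smooth libraries only. For miR-378a-5p it was -1.12, and ran from -1.43 with a pseudocount of 0.5 to -0.51 with one of 5. With each library left out in turn it ran from 0.04 to 0.16 for miR-378a-3p, from -0.67 to 0.06 for miR-378g_R+3_1ss6GA, from -0.36 to 0.04 for miR-378b_R+1_1ss2GC, from -2.00 to 0.72 for miR-378c_R-4, from -1.87 to 0.14 for miR-378a-5p and from -0.99 to 0.63 for miR-378d. With libraries rescaled to the same total, an alternative chosen after seeing the data, miR-378a-3p had 0.14.

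The log2 ratio of 3p to 5p arm, small-scale topography minus smooth over group means, was 0.57, and ran from -0.04, with small-scale replicate 3 left out, to 1.32, with small-scale replicate 1 left out. The share of miR-378a-3p in the family differed by 0.941 percentage points, by 0.501 to 1.4 with a library left out, and by 0.0823 over the members named miR-378a only, a sum without the minor 3p forms. The share of the family in the total differed by 0.154 percentage points, and by 0.0214 to 0.256 with a library left out. The log2 ratio of the summed family was 0.08, and 0.02 to 0.14 with a library left out.

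The deviations of same-numbered libraries of the 2 surfaces had correlations of -0.17, 0.11 and -0.00 over 252 sequences. Those of differently numbered libraries ran from -0.25 to 0.30. Whether same-numbered libraries share a culture or a run was not tested. With the replicate block the number of calls was 0 and miR-378a-3p had 0.09. The cause of these shifts was not tested. Depth limits the minor forms, each with at most 169 reads in a library, and the 5p arm, at most 31.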

Other observations

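Among the named sequences listed in every library, miR-23b-3p_R-1 ran most opposite to miR-378a-3p, with Pearson's r = -0.969 over the 6 libraries, a description singled out after the values were seen. Its normalized value was 426, 283 and 295 in the small-scale libraries, against 317, 484 and 334 in the smooth ones. It was highest in the libraries in which miR-378a-3p was lowest, smooth replicate 2 and small-scale topography replicate 1, and its log2 fold change was -0.18 (standard error 0.29, adjusted p = 0.885 from limma).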
